A study of Mus musculus with 8 samples.

Results

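DNA replication and cell cycle genes were followed in RNA from exosomes of a mouse mast cell line and in RNA from the cells that released them. The genes were chosen by symbol, and no measured value entered the rule, although earlier results of these data were known. They were the Mcm, Orc, Rfc, Pol (alpha, delta and epsilon), Ccn (A, B, D and E), Cdk, Cdkn and E2f families, the Aurora kinases, and Pcna, Cdc7, Cdc20, Cdc45, Cdt1, Gmnn, Plk1, Bub1, Bub1b, Mki67, Top2a, Rrm1 and Rrm2. They came to 70 genes of the 18193 that the array names, read by 154 of its 45037 probe sets other than controls. Ccnb1 was not analysed here.

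Exosomes are small vesicles shed by cells into the surrounding medium. The question of the study was how the RNA in them compares with the RNA of the parent cells. Both groups came from MC/9, a murine mast cell line, and the labels name no allele, drug or time point for either group. All cells grew in medium with 10% fetal bovine serum and 10% of a supplement from rat T cells stimulated with concanavalin A. For the 4 exosome samples the supernatant was cleared of cells and debris by centrifugation and filtered, and the vesicles were then pelleted in an ultracentrifuge. The other 4 samples were the MC/9 cells. Total RNA was taken with Trizol, and 5 µg of it was labelled for each Affymetrix Mouse430_2 array, 1 array per sample. Each sample is labelled a biological replicate. No source states that separate cultures were used, and the p-values may reflect technical spread alone.

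A cell that is about to divide copies its DNA once. The origin recognition complex, Orc1 to Orc6, marks the start sites, Cdt1 loads the Mcm2 to Mcm7 helicase there, and the Cdc7 kinase with the cyclin-dependent kinases sets it going together with Cdc45. Pcna, a ring around the DNA, then holds the polymerases, and the Rfc complex loads that ring. Cyclins switch on their Cdk partners, the Cdkn proteins hold them back, and E2f factors control the transcription of many of these genes. Mast cell lines in culture divide, so their RNA is a natural place to find these transcripts.

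Signals are the deposited values in arbitrary units on a linear scale, and a signal of one probe set cannot be set against that of another. A detection floor was put on each array at the 95th percentile of 147 probe sets for taste, olfactory and vomeronasal receptors, beta-defensins and keratin-associated proteins, families best known from sensory cells, hair and epithelia. The floors stood at 247, 276, 267 and 317 on exosome arrays 1 to 4 and at 13.5, 16.6, 10.5 and 12.4 on cell arrays 1 to 4. A signal above the floor of its array is called detected. A signal that is clear on a cell array can therefore lie far below the floor of an exosome array. The labelled cell type held in the cell arrays, where 9 of 10 mast cell markers were detected on all 4 arrays, with a summed signal of 42850 to 47196. In exosomes 0 of those 10 were detected on all 4 arrays, with a summed signal of 1475 to 1953. Of the markers of other cell types, Csf1r of the macrophage list alone was detected on all cell arrays. No marker of the T cell (6 measured), B cell (3), erythroid (2) or fibroblast (4) lists was, and no marker of any list was detected on all exosome arrays. The file headers give 2 hybridisation dates, by which replicates 1 and 2 of both groups form batch 1 and replicates 3 and 4 form batch 2. The ratio of the 3' to the 5' control probe set of Actb, which grows as RNA shortens, was 1.48, 1.40, 2.01 and 2.39 in cells and 2.32, 5.19, 4.20 and 10.6 in exosomes. For Gapdh it was 0.85, 0.81, 0.98 and 1.20 in cells and 4.15, 3.92, 2.67 and 2.72 in exosomes. Both were higher in exosomes as a group, but they did not order the exosome arrays alike.

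In cells most of the replication and cell cycle transcripts were measured. Detected on all 4 cell arrays were 117 of the 154 probe sets, or 76.0%, against 40.1% of all probe sets on the array. They belonged to 63 of the 70 genes. No probe set of Ccna1, Ccnb3, Cdk3, Cdkn1c, Cdkn2a or Cdkn2b was detected on 3 or more cell arrays, and these 6 genes were not tested. On the exosome arrays 5 of the 154 probe sets, or 3.25%, were detected on all 4 arrays, and the share of all probe sets was 1.497%. A further 128, or 83.1%, were detected on none of them, against 85.5% of all probe sets. On single arrays, 18, 13, 13 and 9 members passed in exosomes and 128, 127, 125 and 123 passed in cells. The genes with a probe set detected on all exosome arrays were Ccnd2, E2f5 and Cdc45, and Mcm7, Mki67 and Top2a had one detected on 3.

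Part of the promoters of these genes hold sequence motifs that the choice by symbol did not use. RefSeq promoters of 300 bases (mouse GRCm38.p6, 250 before the start of the gene and 50 after it) were at hand for 57 of the 70 genes, 69 promoters in all. Each was searched on both strands for E2F sites (TTTCCCGC, TTTCGCGC, TTTGCCGC or TTTGGCGC), for the cell cycle genes homology region (TTTGAA), which late cell cycle genes often carry, and for the CCAAT box (CCAAT). None of these motifs contains another. An E2F site stood in 18 of the 69 promoters, or 26.1%, and in 2.26% of the 32851 promoters of the table. The homology region stood in 17, or 24.6%, against 17.9%, and the CCAAT box in 42, or 60.9%, against 37.4%. By role, E2F sites stood in 8 of 21 licensing promoters, 4 of 11 fork promoters, 2 of 5 of the Cdks and 3 of 8 of the E2f factors. They stood in 1 of 9 of the inhibitors, and in none of the 6 cyclin, 6 mitotic and 3 supply promoters. The homology region stood in 5 of 6 mitotic, 3 of 8 E2f, 1 of 3 supply and 4 of 21 licensing promoters. It stood in 1 of 5 Cdk, 1 of 6 cyclin, 1 of 9 inhibitor and 1 of 11 fork promoters. A CCAAT box stood in 6 of 6 mitotic, 3 of 3 supply, 14 of 21 licensing and 5 of 8 E2f promoters. It also stood in 3 of 6 cyclin, 5 of 11 fork, 4 of 9 inhibitor and 2 of 5 Cdk promoters. A match is a description of letters and not a bound site. To show these motifs in genes of different roles that were measured clearly in cells, the 150 bases before the start of 6 genes are printed 5′ to 3′ on the gene's strand, with the matches in capitals. Mki67 (chr7:135716380-135716529, minus strand), Top2a (chr11:99024190-99024339, minus), Mcm5 (chr8:75109359-75109508, plus), Cdk1 (chr10:69352913-69353062, minus), E2f8 (chr7:48881597-48881746, minus) and Pola1 (chrX:93632156-93632305, minus) read as follows.
Mki67: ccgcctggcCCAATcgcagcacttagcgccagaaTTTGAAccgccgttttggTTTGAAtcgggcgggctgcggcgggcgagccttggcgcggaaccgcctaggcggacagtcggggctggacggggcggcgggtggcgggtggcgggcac
Top2a: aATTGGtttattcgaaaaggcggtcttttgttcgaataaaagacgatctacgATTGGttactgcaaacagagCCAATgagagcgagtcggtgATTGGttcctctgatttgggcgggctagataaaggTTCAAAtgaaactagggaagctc
Mcm5: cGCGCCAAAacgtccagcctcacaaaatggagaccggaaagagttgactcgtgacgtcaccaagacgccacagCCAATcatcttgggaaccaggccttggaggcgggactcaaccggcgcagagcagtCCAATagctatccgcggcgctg
Cdk1: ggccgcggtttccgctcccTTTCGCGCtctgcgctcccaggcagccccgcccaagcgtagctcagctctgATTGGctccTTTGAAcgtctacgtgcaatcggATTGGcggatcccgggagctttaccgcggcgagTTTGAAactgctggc
E2f8: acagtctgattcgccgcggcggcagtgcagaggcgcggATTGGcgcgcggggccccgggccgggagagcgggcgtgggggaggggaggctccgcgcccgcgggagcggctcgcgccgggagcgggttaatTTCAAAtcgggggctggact
Pola1: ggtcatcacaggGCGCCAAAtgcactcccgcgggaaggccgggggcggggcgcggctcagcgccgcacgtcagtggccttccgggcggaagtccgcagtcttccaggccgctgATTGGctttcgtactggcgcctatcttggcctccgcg
Cdk1 held all 3 kinds of match within these bases. Mcm5 and Pola1 held an E2F site and CCAAT boxes, and Mki67, Top2a and E2f8 held the homology region and CCAAT boxes.

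Set against the cells, exosomes had lower signals for most of the genes that could be tested. Tested were probe sets detected on 3 or 4 arrays of either group, as 124 of the 154 were, from 64 genes. All 124 passed through the cells, so the filter itself favours probe sets that are bright there. By limma on log2(signal + 4), with Benjamini-Hochberg adjustment over 20210 probe sets and a threshold of 0.05, 77 of the 124, or 62.1%, were lower in exosomes, against 37.5% of all tested probe sets. Higher in exosomes were 8, or 6.45%, against 17.9% of all, and 39 did not pass. With 1 probe set per gene, 46 of 64 genes were lower, 4 higher and 14 did not pass. The share over all genes of the array counted in this way was not computed. The median log2 difference of the 124 (exosome minus cell) was -2.10, against -0.69 over all tested probe sets. Of the 77, all had a negative difference under each of 5 other scalings of the arrays. Quantile normalization, background subtraction and both control scalings also lowered the median of all tested probe sets, which favours that sign. The scaling to probe sets detected on all 8 arrays raised that median to 0.28, and there 54 of the 77 kept their call. With signals under a floor set to that floor, 14 were no longer negative. That setting moved the members' median to -0.10 and that of all tested probe sets to 1.38. Within batch 1, 70 members (56.5%) were lower and 8 (6.45%) higher, against 30.3% and 13.5% of all tested probe sets. Within batch 2, 70 (56.5%) were lower and 12 (9.68%) higher, against 31.5% and 19.7%.

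The size of most of these differences is known only as a bound. Of the 77 probe sets lower in exosomes, 68 were detected on no exosome array. In 54 cases the geometric mean of the cell signals lay above that of the exosome floors. By these means, on the deposited scale, they were at least 1.04-fold to at least 18.7-fold lower, with a median bound of 2.04. Bounds were not computed on other scales. The scaling to probe sets detected on all 8 arrays moved the median of all tested probe sets from -0.69 to 0.28, so small bounds may not hold there. Single cell signals could still lie under an exosome floor, as at Aurkb 1424128_x_at with 206 and 221 on cell arrays 1 and 2. For the other 14 no fold can be given, because the mean of the cells lay below that of the floors. Where an adjusted p is given beside a bound, it belongs to the limma test on the deposited signals, without raising to the floor. It does not test the size of the bound. Each array was scaled as a whole by the authors, so a signal above the floor can be read only as a share of the signal on its array. In such samples fewer cells or vesicles that carry a transcript and less of it in each cannot be told apart. A signal under the floor cannot be told from background and gives no share. The median of the 147 probe sets behind the floors was 62.2 to 74.1 on exosome arrays and 2.00 to 3.08 on cell arrays.

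**Figure D1:**
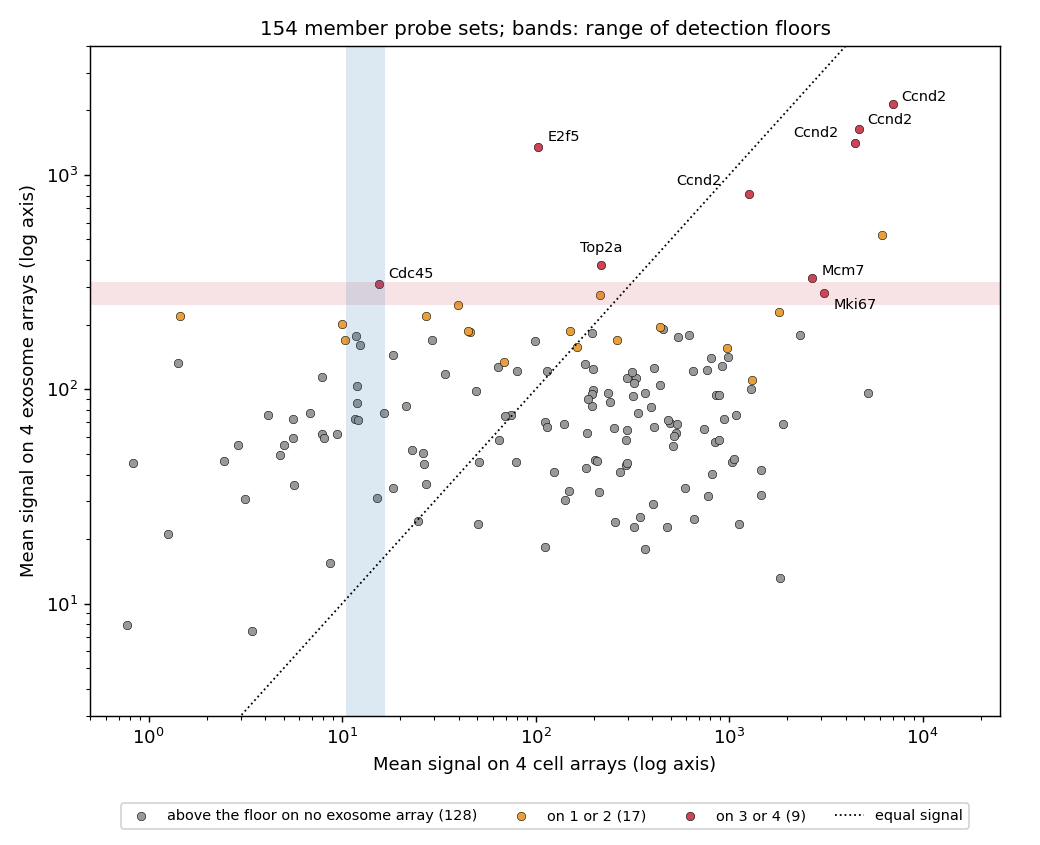
Mean signal of each of the 154 probe sets on 4 cell arrays (horizontal, log axis) and on 4 exosome arrays (vertical, log axis), coloured by the number of exosome arrays on which it was detected (128 on none, 17 on 1 or 2, 9 on 3 or 4). Bands give the range of the floors, 10.5 to 16.6 in cells and 247 to 317 in exosomes. Most points lie right of the cell band and under the exosome band, and the labelled ones from Ccnd2, E2f5, Top2a, Cdc45, Mcm7 and Mki67 reach it or lie above it.

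The genes that license and fire origins were lower in exosomes at 23 of their 39 tested probe sets (59.0%), higher at 3 (7.69%), and did not pass at 13. Over all tested probe sets 37.5% were lower and 17.9% higher. With 1 probe set per gene 11 of 18 genes were lower. Mcm7, a subunit of the replicative helicase, had signals of 2337, 2225, 3062 and 3121 on cell arrays 1 to 4 and 371, 422, 374 and 152 on exosome arrays 1 to 4 at probe set 1438320_s_at. Exosome replicate 4 was below its floor and the other 3 were above theirs, and all exosome arrays lay under all cell arrays. The log2 difference was -3.09 ± 0.35 (SE) (limma adjusted p = 4.02e-05). Its other 3 probe sets were lower too but detected on no exosome array, and 1438320_s_at, by its suffix, may share probes with other transcripts. Mcm5, another helicase subunit, gave 1242, 1226, 1663 and 1742 in cells and 30.4, 6.14, 84.3 and 7.97 in exosomes, all of the latter below the floor, and was at least 5.25-fold lower (adjusted p = 2.63e-05). Cdt1, the loader of the helicase, gave 1121, 1095, 1888 and 1731 in cells against 79.8, 69.5, 5.53 and 12.9, at least 5.13-fold lower (adjusted p = 6.35e-05). The exosome arrays were low in each of these genes and never reached the range of the cells.

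Mcm3 differed from probe set to probe set. At 1420028_s_at the cells gave 1014, 888, 1276 and 1060.1 and the exosomes 49.6, 12.6, 7.53 and 119, at least 3.81-fold lower, and 4 of its 5 probe sets were lower while 1420029_at did not pass, with 18.6, 30.1, 27.7 and 28.6 in cells. Mcm6 1416251_at, also of the helicase, had the widest difference among the licensing probe sets, with 1548, 1476, 2099 and 2244 in cells against 11.6, 16.1, 15.6 and 9.60, at least 6.57-fold lower (adjusted p = 4.78e-07). It was chosen after its values were seen. Gmnn, which holds Cdt1 back, was at least 3.49-fold lower, from 742, 811, 1213 and 1179 in cells to 188, 123, 75.9 and 181 in exosomes. The origin recognition complex was less uniform. Orc3 was lower at 1416115_at, at least 1.15-fold, and Orc6 at least 1.32-fold, whereas the representative probe sets of Orc2, Orc4 and Orc5 did not pass, with cell signals of 125 to 216 that lay under the exosome floors. Probe sets of one gene differed here too. Orc3 1416116_at and 1416117_at did not pass, and Orc4 1453804_a_at was lower (limma adjusted p = 0.0400) with no bound.

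All 11 genes of the replication fork were lower in exosomes by their representative probe sets. So were 16 of their 18 tested probe sets (88.9%), against 37.5% of all tested probe sets. Pcna, the sliding clamp, had the largest bound of any member. Its cell arrays gave 4655, 4714, 5603 and 5813 (5196 ± 597, SD, n = 4) and its exosome arrays 85.8, 70.7, 149 and 80.7, all below the floor. The exosomes were at least 18.7-fold lower (adjusted p = 6.55e-07). Rfc2, a subunit of the clamp loader, gave 1406, 1413, 1269 and 1073 in cells against 133, 151, 82.4 and 34.5, at least 4.65-fold lower (adjusted p = 4.06e-05). Its partners Rfc4 and Rfc1 were at least 1.72-fold and at least 1.59-fold lower at 1424321_at and 1418342_at. Rfc1 1451920_a_at did not pass, with cell signals of 85.1, 85.6, 15.1 and 10.1. Among the polymerase subunits, Pola1 of the primase-bound polymerase alpha was at least 1.43-fold lower, Pold1 and Pold2 of polymerase delta at least 1.17-fold and 1.25-fold, and Pole2 of polymerase epsilon at least 1.12-fold. The cell signals of these 4 probe sets lay between 251 and 410, near the exosome floors. A second probe set of Pold1, 1456055_x_at, was brighter in cells (419, 414, 699 and 597) and at least 1.88-fold lower, and Pola2 was lower at 1448369_at with cell signals of 303, 294, 236 and 178 that allow no bound.

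Nucleotide supply and DNA topology were lower in exosomes at 6 of 7 tested probe sets (85.7%), against 37.5% of all tested probe sets. Rrm2, the regulated subunit of ribonucleotide reductase, gave 1355, 1429, 2309.8 and 2518 in cells and 51.7, 20.1, 101 and 103 in exosomes at 1434437_x_at, at least 6.64-fold lower (adjusted p = 1.87e-05). Rrm1, its large subunit, was at least 2.86-fold lower at 1448127_at, where exosome replicates 3 and 4 (225 and 279) stood above replicates 1 and 2 (29.2 and 26.2). Scaled to the probe sets detected on all 8 arrays, that call was lost (log2 difference -2.13). Top2a, the topoisomerase that untangles replicated DNA, was at least 8.29-fold lower at 1454694_a_at, from 1857, 1889, 2798 and 2789 in cells to 202, 219.6, 163 and 133 in exosomes (adjusted p = 4.6e-06). A second probe set of Top2a read otherwise: 1442454_at gave 343, 224, 405 and 551 in exosomes, with 3 of 4 arrays above the floor, and 284, 265, 132 and 195 in cells. The groups overlapped there and the difference of 0.77 ± 0.38 (SE) did not pass (adjusted p = 0.105), but it passed as higher with quantile normalization (1.81), with scaling to the probe sets detected on all 8 arrays (1.79), with signals raised to the floor (0.85), within batch 2 (1.53) and without exosome replicate 2 (1.002), and turned to -3.65 and -2.77 with the hybridisation and poly-A controls.

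Among the cyclins, 8 of 19 tested probe sets (42.1%) were lower in exosomes, a share near the 37.5% of all tested probe sets, 1 was higher and 10 did not pass. Ccnd2, cyclin D2, which drives the entry into the cycle, is read by 7 probe sets, and 3 of them (1434745_at, 1448229_s_at and 1455956_x_at) were detected on all exosome arrays. At 1434745_at the exosome arrays gave 2760.0, 2744, 1520.1 and 1504 and the cell arrays 7262, 6562, 6959 and 7207. Replicates 1 and 2 of the exosomes were higher than replicates 3 and 4, and all of them lay below the cells. The log2 difference was -1.78 ± 0.27 (SE) (limma adjusted p = 0.000308), and it fell to -0.37 and lost its call with quantile normalization. At 1455956_x_at the exosomes gave 2727, 2491, 763 and 547 against 4542, 4439, 4949 and 4728 in cells (log2 difference -1.84 ± 0.49 (SE), adjusted p = 0.00809), and at 1430127_a_at they gave 2388, 2662, 326 and 278 against 4963, 4809, 4464 and 3559 (-2.33 ± 0.70 (SE), adjusted p = 0.0153). Both calls were lost with quantile normalization (-0.05 and -0.88) and with scaling to the probe sets detected on all 8 arrays (-0.81 and -1.30). Exosome replicates 1 and 2 were again the higher pair at both.

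The other probe sets of Ccnd2 spread widely. At 1416122_at the exosomes gave 841, 784, 243 and 225 against 6356, 5891, 6527 and 5859.9 in cells. Exosome replicates 3 and 4 were under the floor, and with these raised to it the exosomes were at least 12.7-fold lower (adjusted p = 4.67e-05). At 1448229_s_at they gave 1223, 861, 566 and 625 against 1846, 1984, 660.3 and 561, where the cells of batch 2 had fallen to the level of the exosomes, the groups overlapped and the difference of -0.46 ± 0.46 (SE) did not pass. It passed as higher with quantile normalization (1.36, adjusted p = 0.0246), and as lower within batch 1 (-0.90, adjusted p = 0.0319) and with the hybridisation and poly-A controls (-4.93 and -4.07). At 1416124_at exosome replicates 3 and 4 (396 and 484) were above replicates 1 and 2 (101 and 123), the reverse of the other 6 probe sets. 1416123_at and 1416124_at did not pass. Of the 7 probe sets, 4 were thus called lower and 3 did not pass. Whether they read different stretches or forms of the transcript was not tested.

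**Figure D2:**
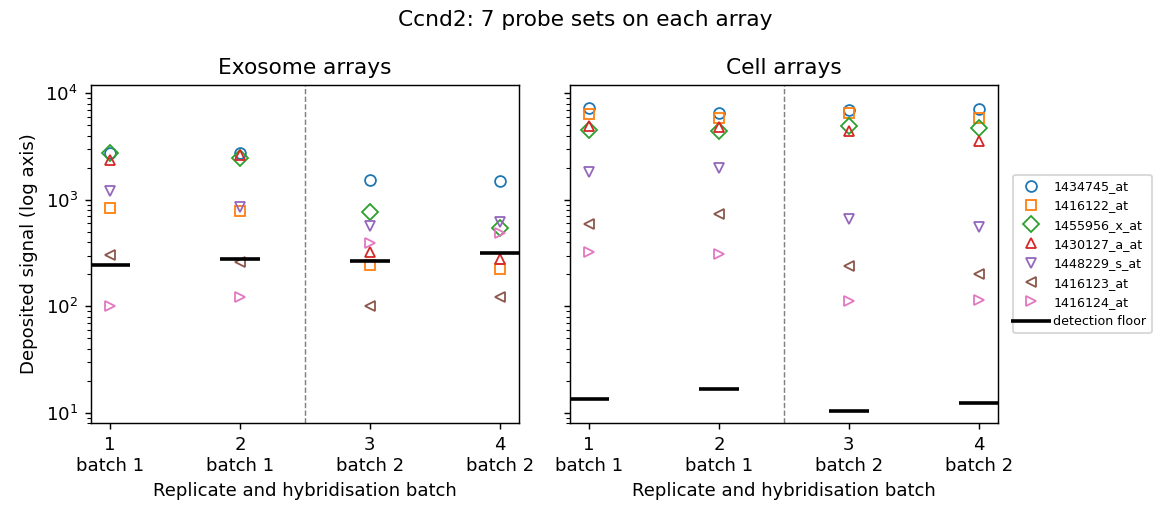
Signals of the 7 Ccnd2 probe sets (log axis) on each of the 4 exosome and 4 cell arrays, by hybridisation batch. At 1434745_at all exosome arrays lie above the exosome floors and under the cell arrays, while at 1416123_at, 1416124_at and 1448229_s_at the groups overlap.

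The remaining cyclins were mostly below the floor in exosomes. Ccnb2, a mitotic cyclin, gave 859.8, 863, 1382 and 1370.0 in cells and 53.9, 17.5, 5.23 and 17.4 in exosomes, at least 3.95-fold lower (adjusted p = 1.19e-05). Ccna2, the cyclin of S phase and of the entry into mitosis, gave 753, 853, 1167 and 1123 in cells and 267, 150.1, 105 and 103 in exosomes, with replicate 1 alone above the floor, and was at least 3.41-fold lower with the other 3 raised to the floor (adjusted p = 0.000127). No exosome array reached the cells in either gene. Ccnd3, cyclin D3, did not pass at 1415907_at (338, 334, 278 and 235 in cells, 146, 109, 4.18 and 190.1 in exosomes, adjusted p = 0.0629), although the groups did not overlap. Without exosome replicate 3, which was low, it passed as lower with a log2 difference of -1.0, without replicate 4 with -2.52 and within batch 1 with -1.39, and under 9 alternative settings in all. The representative probe sets of Ccne1, Ccne2 and Ccnd1, which act before DNA synthesis, did not pass either. Another probe set of Ccnd1, 1417420_at, was lower (-1.62, limma adjusted p = 0.0124). Its cell signals of 127, 155, 100 and 117 lay under the exosome floors and allow no bound.

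Among the cyclin-dependent kinases 7 of 10 tested probe sets (70%) were lower, against 37.5% of all tested probe sets. Cdk1, the kinase of mitosis, gave 784, 782, 1268 and 1324 in cells and 15.3, 17.6, 7.06 and 143 in exosomes, at least 3.65-fold lower (adjusted p = 0.000132). Cdk4, a partner of the D cyclins, gave 1302, 1292, 1354 and 1325 in cells at 1422441_x_at and 41.5, 345, 24.5 and 32.2 in exosomes, with replicate 2 alone above the floor and the other 3 well under it. The exosomes were at least 4.52-fold lower with those 3 signals raised to the floor (adjusted p = 0.000308), and within batch 1, where replicate 2 lies, the call was lost. Its other 2 probe sets were at least 2.95-fold and 3.38-fold lower. Cdk2, the partner of cyclins E and A, was at least 1.95-fold lower (454, 486, 568 and 663 against 95.5, 200.1, 158 and 245, adjusted p = 0.00205), and that call was lost with quantile normalization (-1.36) and with scaling to the probe sets detected on all 8 arrays (-0.66). Cdk7, which activates other Cdks, was lower at 1451741_a_at (adjusted p = 0.00408), but its cell signals of 181, 191, 225 and 212 lay under the exosome floors and allow no bound. It turned to 0.44 with signals raised to the floor, and the call was lost with scaling to the probe sets detected on all 8 arrays (-1.34).

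The 4 tested genes of kinase inhibitors were all lower by their representative probe sets, each detected on no exosome array. By probe set 4 of 5 (80%) were lower, against 37.5% of all tested probe sets. Cdkn1a, or p21, gave 851, 786, 855 and 471 in cells, where replicate 4 was low, and 99, 109.9, 14.8 and 37.4 in exosomes, at least 2.61-fold lower (adjusted p = 0.000262). Cdkn2c and Cdkn2d, inhibitors of Cdk4 and Cdk6, were at least 1.64-fold and 1.47-fold lower, and Cdkn1b, or p27, at least 1.20-fold. The call of Cdkn2c was lost with quantile normalization (-0.85) and with scaling to the probe sets detected on all 8 arrays (-0.22), and that of Cdkn1b with signals raised to the floor (-0.26). Cdkn1a 1421679_a_at, with 44.4, 60.1, 48.2 and 48.3 in cells, did not pass (adjusted p = 0.0671).

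Of the 14 tested probe sets of E2f factors 3 (21.4%) were lower, 3 (21.4%) higher and 8 not called, against 37.5% lower and 17.9% higher over all tested probe sets, so that the higher share was near that of the array. E2f8, a repressor of E2F targets, gave 357, 363, 636 and 634 in cells and 67.7, 55.7, 44.7 and 109 in exosomes, at least 1.73-fold lower (adjusted p = 0.000161). E2f6 and E2f7, repressors as well, were lower (adjusted p = 0.00379 and 0.00229), from 204, 204, 218 and 205 and 115, 139, 162 and 182 in cells. Those cell signals lay under the exosome floors, so no fold can be given, and with signals under a floor set to it the differences turned to 0.40 and 0.89. Both calls were lost with scaling to the probe sets detected on all 8 arrays (-1.43 and -1.17), and that of E2f6 within batch 1 (-2.31). E2f3, an activator, did not pass (157, 146, 217 and 203 in cells, 43.0, 114, 132 and 233 in exosomes).

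E2f5, a factor that binds the retinoblastoma-related pocket proteins, stood apart at probe set 1447625_at. The exosome arrays gave 1495, 1906, 1273 and 754, all above the floor, and the cell arrays 106, 116, 70.6 and 121. Every exosome array was above every cell array. The log2 difference was 3.61 ± 0.35 (SE) (limma adjusted p = 1.59e-05), and it was 0.04 when the poly-A controls set the scale and -0.83 with the hybridisation controls. The 2 other probe sets of E2f5 did not read the same in exosomes. 1460207_s_at gave 101, 161, 79.8 and 237 there, none above the floor, and 20.4, 18, 11.6 and 23.6 in cells (adjusted p = 0.00078, higher), and 1417444_at gave 30.5, 53.0, 38.5 and 2.41 against 17.7, 16.7, 13.9 and 12.5 and did not pass (adjusted p = 0.539).

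Mitotic kinases, checkpoint genes and the marker Mki67 were lower in exosomes at 10 of 12 tested probe sets (83.3%), against 37.5% of all tested probe sets. Mki67, the antigen Ki-67 of dividing cells, gave 2577, 2491, 3417 and 3923 in cells and 251, 228, 306 and 341 in exosomes, of which replicates 1, 3 and 4 were just above their floors. The groups lay far apart, with a log2 difference of -3.44 ± 0.27 (SE) (adjusted p = 4.5e-06). Cdc20, which switches on the anaphase-promoting complex, gave 1247, 1245, 2292 and 2448 in cells and 321, 215, 247 and 133 in exosomes at 1439377_x_at, with replicate 1 alone above the floor, and was at least 5.84-fold lower with the other 3 raised to the floor (adjusted p = 7.28e-05). Bub1b, a spindle checkpoint kinase, was at least 1.06-fold lower at 1416961_at (269.8, 249.9, 376 and 293 against 12.1, 15.1, 14.6 and 139), a call that was lost within batch 2 (-2.70) and with signals raised to the floor (-0.09). Aurkb, the kinase of the chromosomal passenger complex, was at least 1.10-fold lower at 1424128_x_at (206, 221, 436 and 430.0, those of batch 1 under every exosome floor, against 133, 142, 142 and 11.8, adjusted p = 0.0387). That call was lost within either batch (-0.62 and -3.19), with batch as a block (-1.90), with signals raised to the floor (-0.14), with scaling to the probe sets detected on all 8 arrays (-0.92), and without cell replicate 2, 3 or 4 (-2.06, -1.73 and -1.74). Plk1, a kinase of mitotic entry, did not pass.

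**Figure D3:**
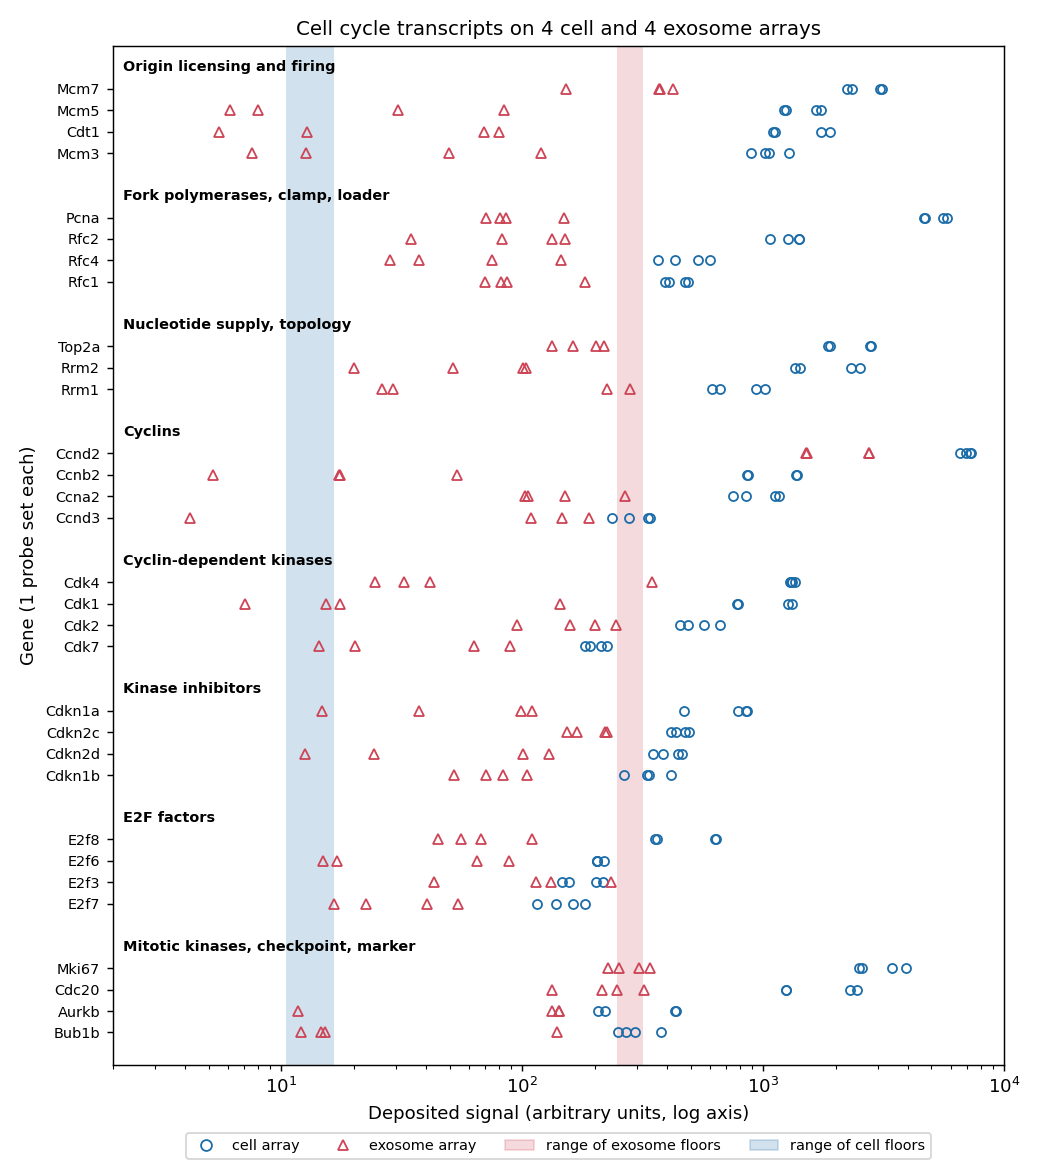
Signal of 1 probe set per gene (log axis) on each cell array (circles) and exosome array (triangles) for up to 4 genes per role, those with the highest mean signal in cells. Bands give the range of the detection floors of the cell arrays (10.5 to 16.6) and of the exosome arrays (247 to 317). The triangles lie left of the circles in every gene but E2f3, and those of Ccnd2 alone lie wholly right of the exosome band.

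The 8 probe sets that were higher in exosomes came from 7 genes, and only 2 of them were detected on 3 or more exosome arrays. E2f5 1447625_at is one. The other is 1457838_at of Cdc45, a helicase cofactor, with 274, 298, 295 and 375 in exosomes, just above the floors, against 11.4, 24.6, 10.9 and 15.2 in cells, near theirs. Its log2 difference of 4.05 ± 0.40 (SE) (adjusted p = 1.57e-05) shrank to 0.71 with the poly-A controls and turned to -0.11 with the hybridisation controls. The second probe set of Cdc45, 1416575_at, was called the opposite way, with 174, 183, 185 and 195 in cells against 94.9, 101, 11.3 and 43.2 (adjusted p = 0.0207), all exosome values under the floor. That lower call was lost without cell replicate 3 or 4 (-1.84 and -1.82), within batch 1 (-0.84) and with scaling to the probe sets detected on all 8 arrays (-0.88). Cdc45 was the 1 gene of the 39 with several tested probe sets that was called in both directions, and 16 of the 39 were lower at all of them.

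The other 6 probe sets were E2f4 1451480_at, Cdc7 1426021_a_at, Ccnd3 1438805_at, Orc1 1443172_at, Cdk6 1455287_at and E2f5 1460207_s_at. Orc1, of the origin recognition complex, gave 168, 351, 341 and 126 in exosomes, 2 arrays above the floor, and 62.8, 46.8, 23.8 and 26.2 in cells (adjusted p = 0.00146). Its other probe set did not pass, at -0.30. Cdk6, a D-cyclin partner, gave 307, 207, 123 and 240.1 against 21.4, 5.78, 44.8 and 36.5, with 1 exosome array above the floor (adjusted p = 0.00108). With some exosome signals under the floor, neither gene has a measured fold. E2f4, a mostly repressive factor, gave 265, 243, 94.0 and 138 against 39.1, 61.8, 41.8 and 40.6, and Cdc7, the kinase that fires origins, 304, 92.6, 152 and 203 against 52.5, 51.5, 40.8 and 34.0, each with 1 exosome array above the floor. Ccnd3 1438805_at gave 206, 155, 229 and 91.5, none above the floor, against 36.2, 47.9, 14.0 and 18.4. The exosome signals of these probe sets thus lay around or under the floors. All 8 stayed positive with quantile normalization, which kept 3 calls, and 8 turned negative with the hybridisation controls and 6 with the poly-A controls.

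Genes of the same pathways that the choice by symbol left out were also mostly lower in exosomes. Of 91 listed genes 89 had a probe set and 88 were tested, with 1 probe set each. Lower in exosomes were 64 (72.7%), higher 1 (1.14%), and 23 did not pass, against 37.5% and 17.9% of all tested probe sets, with a median log2 difference of -2.30. These shares are unlike in unit, because all tested probe sets were not counted with 1 per gene. The lower share of the members was 62.1% by probe set and 71.9% by gene. All 88 were detected on every cell array, 2 on every exosome array and 80 on none. They thus passed the filter through the cells, which favours genes that are bright there. The list was also chosen with earlier results of these data known. Cks1b, a Cdk-binding subunit, was at least 11.7-fold lower (cells 3369.7 ± 1108, exosomes 133 ± 49.2, SD, n = 4 each), and Rpa1, which coats single-stranded DNA, at least 9.79-fold lower (2708 ± 259.6 against 109.9 ± 26.2). Pttg1, or securin, was at least 7.79-fold lower, and Birc5, or survivin, at least 4.91-fold. The 2 genes detected on every exosome array were Fen1, the flap nuclease of lagging-strand synthesis, and Anapc5, of the anaphase-promoting complex. Fen1 gave 1156, 1296, 718 and 849.5 in exosomes and 673, 598, 1280.3 and 1194 in cells, where the groups overlapped, and did not pass (log2 difference 0.14 ± 0.34 (SE), adjusted p = 0.739). The batches ran in opposite directions at Fen1: the exosome arrays lay above the cell arrays in batch 1 and under them in batch 2. Anapc5 gave 1098, 1028, 308 and 473 in exosomes against 2240.4, 2145, 2854 and 2929 in cells, all of the latter above the former (-1.98 ± 0.41 (SE), adjusted p = 0.00188). The 1 gene called higher, Gins3, was detected on no exosome array, and its call (1.03 ± 0.38 (SE), adjusted p = 0.0372) was lost without exosome replicate 3 or any 1 cell replicate.

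The cell arrays themselves differed by batch. Among the 4 cell arrays, 36 of the 124 tested member probe sets, or 29.0%, were higher in batch 2 (replicates 3 and 4) than in batch 1 (replicates 1 and 2), against 15.4% of 19804 tested probe sets. Lower in batch 2 were 20, or 16.1%, against 23.8% (limma with 2 arrays each, adjusted over all tested probe sets). The median log2 difference, batch 2 minus batch 1, was 0.09 for the members and -0.11 for all tested probe sets. With quantile normalization 30 were higher and 18 lower, and 55 of the 56 called probe sets kept their sign. Without cell replicate 1 or cell replicate 2, 12 were lower in place of 20, and without cell replicate 2, 24 were higher in place of 36. Cultures and hybridisation dates cannot be told apart here, and the Actb 3' to 5' ratio moved with the batches, from 1.48 and 1.40 to 2.01 and 2.39. Its part in these differences was not tested.

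Genes of mitosis stood at 7 of 12 probe sets (58.3%) higher in batch 2 by limma, against 15.4% of all tested probe sets. A positive difference was seen at 11 of 12, and their median was 0.49. Cdc20 1439377_x_at went from 1247 and 1245 in batch 1 to 2292 and 2448 in batch 2 (0.92 ± 0.08 (SE), adjusted p = 4.18e-05). Aurkb 1424128_x_at went from 206 and 221 to 436 and 430 (1.01 ± 0.12 (SE), adjusted p = 0.000162), and Mki67 from 2577 and 2491 to 3417 and 3923 (0.53 ± 0.09 (SE), adjusted p = 0.00103). In all 3 genes both arrays of batch 2 lay above both of batch 1. Cdk1 (0.72 ± 0.09 (SE)) and its partner Ccnb2 (0.67 ± 0.09 (SE)) were higher in batch 2 as well, as was Ccna2 1417910_at (0.51 ± 0.10 (SE)). Ccna2 1417911_at did not pass (-0.03 ± 0.11 (SE)).

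Replication genes were higher in batch 2 at 11 of 39 licensing probe sets (28.2%) and 6 of 18 fork probe sets (33.3%), against 15.4% of all tested probe sets. They were lower at 4 in each group (10.3% and 22.2%), against 23.8% of all. Cdt1 1424143_a_at went from 1121 and 1095 to 1888 and 1731 (0.70 ± 0.09 (SE)), and Gmnn from 742 and 811 to 1213 and 1179 (0.62 ± 0.09 (SE)). Rrm2 1448226_at went from 515 and 496 to 1040 and 1033 (1.03 ± 0.10 (SE), adjusted p = 4.87e-05), Top2a 1454694_a_at changed by 0.58 ± 0.08 (SE) and E2f8 by 0.81 ± 0.10 (SE). Pcna differed little, by 0.28 ± 0.07 (SE) (adjusted p = 0.00858).

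Cyclins of the D type ran the other way at several probe sets. Ccnd1 1417419_at went from 108 and 115 in batch 1 to 26.5 and 26.3 in batch 2 (-1.92 ± 0.20 (SE), adjusted p = 8.82e-05), but its 2 other probe sets did not pass. Ccnd2 was lower in batch 2 at 4 of its 7 probe sets, by -1.65 ± 0.11 (SE) at 1448229_s_at, and did not pass at 1434745_at (0.04 ± 0.07 (SE)). The widest fall was at Rfc1 1451920_a_at, from 85.1 and 85.6 to 15.1 and 10.1 (-2.44 ± 0.27 (SE), adjusted p = 0.000111), while 1418342_at of the same gene did not pass (0.27 ± 0.11 (SE)). Of the genes tested, 28 had a probe set higher in batch 2, 15 had one lower, and E2f2, Pold1 and Top2a had both. Among the 88 other pathway genes 39 (44.3%) were higher in batch 2 and 6 (6.82%) lower, against 15.4% and 23.8% of all tested probe sets, which were not counted with 1 per gene. The higher share of the members was 29.0% by probe set and 39.1% by gene. Genes were named by their cell signal within a role, by passing the floor in exosomes or by a higher call, and the further ones, such as Mcm6, Gmnn, Pola1 and, for the batches, most single probe sets, were chosen after their values were seen.

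**Figure D4:**
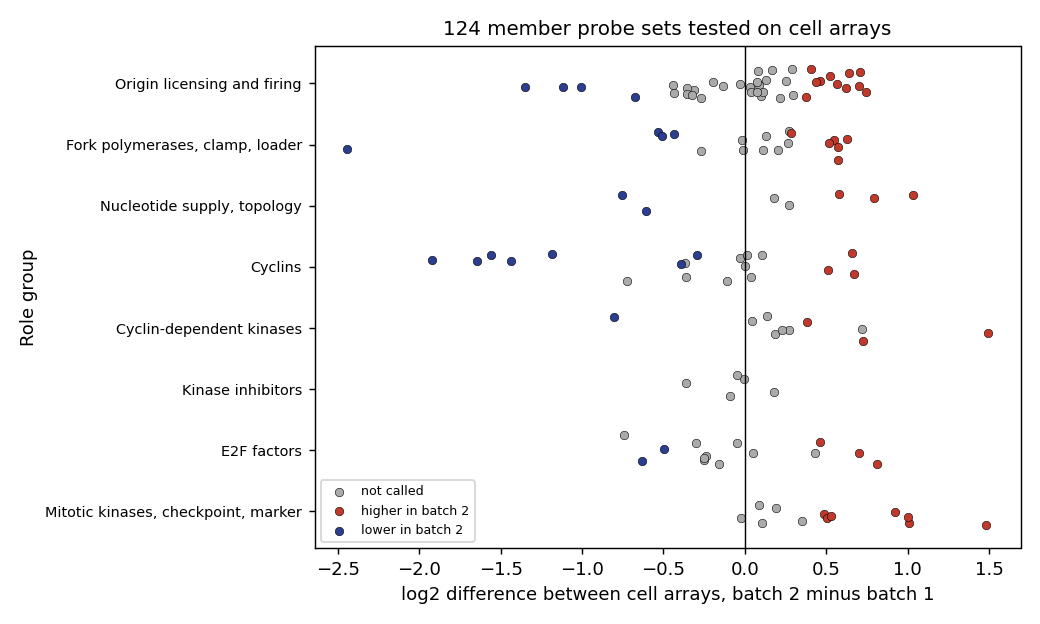
Log2 difference between the cell arrays of batch 2 and of batch 1 for each of the 124 tested probe sets, by role, with calls marked. The 12 mitotic probe sets lie mostly above 0 (median 0.49, 11 positive), the cyclins reach from above 0 to below -1, and the lowest point is Rfc1 1451920_a_at.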

How the data were processed

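RNA of 4 exosome and 4 MC/9 cell samples was measured on 8 arrays. The intensity values per probe set, on a linear scale, are as the authors deposited them, made, per the submitters' processing notes, with GCOS, a program of the array's maker. How probes were summarised and background was treated is not given in the sources used here. Each array's trimmed mean was scaled as a whole, which raises the background of arrays with little signal. The experiment files, also deposited, gave only the hybridisation batches, per the file headers.

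Probe sets with 1 gene symbol in the platform annotation (34945) were named, of which 34741 matched the RefSeq gene table (GRCm38.p6, used for names and promoters). The test was limma (version 3.58.1, R version 4.3.3) on log2(signal + 4), with 4 as pseudocount (lmFit, eBayes with trend, two-sided, Benjamini-Hochberg, threshold 0.05), a procedure tested on simulated data. A bound ("at least N-fold") is the geometric mean of the cells over that of the exosomes, with exosome signals under an array's floor raised to the floor. It was computed on the deposited scale alone, and the adjusted p beside it comes from the limma test without that raising. For a gene, the probe set with the highest mean log2 value over 8 arrays stands. Named were up to 4 genes per role with the highest cell signal, genes with a probe set detected on 3 exosome arrays, and genes called higher or in both directions. The members, lists and tests were chosen with earlier results of these data known. The number of arrays limits the precision.

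Replicate numbers are shared between groups, but the deviations of same-numbered arrays from their group means correlated at -0.07 to 0.01, so the numbers were not taken to pair the samples. With most exosome signals under the floor, this check cannot exclude pairing. The alternatives were 2 other pseudocounts (1 and 16), no filter, a floor at the 99th percentile, signals raised to the floor, 5 other scalings (quantile, hybridisation controls, poly-A controls, probe sets detected on all 8 arrays, background median subtracted), blocks by replicate or batch, each batch alone, each array left out and 1 probe set per gene.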

Additional observations from a re-analysis of the deposited data

Results flagged for a closer look

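In 90 groups of 4 arrays, those of the 45 named probe sets, 7 single values stood farther from the other 3 than Dixon's test allows at 95%. Chance flags about 1 in 20 groups, so a number of this size has no weight by itself. In exosomes, Mcm7 1438320_s_at gave 152 on replicate 4 against 371 to 422 on the others, which is why that probe set was above the floor on 3 arrays and not on 4. Aurkb 1424128_x_at gave 11.8 on exosome replicate 4 against 133 to 142, Bub1b 1416961_at gave 139 on exosome replicate 4 against 12.1 to 15.1, and Ccnd3 1415907_at gave 4.18 on exosome replicate 3 against 109 to 190. All 4 exosome values lay under the floor of their array. In cells, Cdkn1a 1424638_at gave 471 on replicate 4 against 786 to 855, E2f4 1451480_at gave 61.8 on replicate 2 against 39.1 to 41.8, and E2f6 1448835_at gave 218 on replicate 3 against 204 to 205.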

How the results depend on the processing

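Signal over background limits these results: 128 of 154 probe sets were detected on no exosome array, and absolute amounts of RNA are not in the data. Of the 77 member probe sets lower in exosomes, 72 stayed called with quantile normalization, 54 with scaling to the probe sets detected on all 8 arrays and 53 with signals raised to the floor. The median of all tested probe sets moved from -0.69 to -1.51 with quantile normalization, -2.46 with the background subtracted, -3.94 with the poly-A controls, -4.72 with the hybridisation controls and 0.28 with the probe sets detected on all 8 arrays, and that of the members from -2.10 to -2.33, -3.80, -5.39, -6.16 and -1.11.

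Lower members numbered 121 (97.6%) with the hybridisation controls, against 94.2% of all tested probe sets, and 46 or 47 with 1 probe set per gene (highest log2 mean or highest cell mean). Higher members, 8 in the report, numbered 37 (24.0%) beside 81 lower without the filter, where 59.0% of all probe sets were higher, 5 with the floor at the 99th percentile, 51 (41.1%) beside 53 lower with signals raised to the floor, against 67.6% of all, 5 with quantile normalization, 0 with the hybridisation or poly-A controls, 17 (13.7%) beside 54 lower with the probe sets detected on all 8 arrays, against 28.6% of all, 4 with the background subtracted, and 4 or 3 with 1 probe set per gene. The 1 other pathway gene called higher became 2 without the filter, 27 with signals raised to the floor, 6 with the probe sets detected on all 8 arrays, 4 within batch 2, and 0 with the hybridisation controls, the poly-A controls, the background subtracted or the replicate block. Members detected on all exosome arrays, 5 in the report, numbered 2 with the floor at the 99th percentile, 8 in batch 1 and 9 in batch 2. The causes of these shifts were not tested, apart from what each setting does by construction.

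Leaving out 1 array gave 74 to 81 lower and 8 to 11 higher members, 60 to 63 lower and 0 to 1 higher other pathway genes, 118 to 119 members detected on every array in cells and 5 to 7 in exosomes. For the cell batches, an alternative chosen after seeing the data, it gave 24 to 38 higher and 12 to 22 lower, with the lone array of a batch assumed to vary like the others. The replicate block, for which no source states that the numbers pair the samples, gave 79 lower and 8 higher members and 62 lower other pathway genes. Among named genes it changed 1 call, Ccnd3 1415907_at, to lower (-2.04). No exosome array had its highest correlation with the cell array of its own number.

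Reversed differences were these. With the hybridisation controls they were Ccnd3 1438805_at -1.74, Cdc45 1457838_at -0.11, Cdc7 1426021_a_at -2.41, Cdk6 1455287_at -1.14, E2f4 1451480_at -2.43, E2f5 1447625_at -0.83, E2f5 1460207_s_at -1.47, Orc1 1443172_at -1.79 and Top2a 1442454_at -3.65. With the poly-A controls they were Ccnd3 -0.91, Cdc7 -1.56, Cdk6 -0.41, E2f4 -1.64, E2f5 1460207_s_at -0.67, Orc1 -0.95 and Top2a -2.77. With signals raised to the floor they were Cdc45 1416575_at 0.57, Cdc7 1426002_a_at 0.48, Cdk7 1451741_a_at 0.44, E2f3 1434564_at 0.62, E2f6 1448835_at 0.40 and E2f7 1437187_at 0.89. Ccnd2 1448229_s_at turned to 1.36 with quantile normalization, and Orc1 to -0.30 when its probe set with the highest cell signal stood for it.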
